A study of Homo sapiens with 2 samples.

Results

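Hypoxia-inducible target genes outside glycolysis were followed in RNA sequencing of the SETD2 knockout line of 786-O renal carcinoma cells and of the wild-type 786-O line, with 1 library of each. The genes were chosen by symbol from a list of known targets of the hypoxia-inducible factors (HIF) that leaves out glycolytic enzymes and the VEGF and LOX genes. All 32 were found among 23375 gene rows, and 31 reached the minimum of 10 reads over both libraries that was set for a comparison. 786-O is a long-used cell line of clear cell renal carcinoma that has lost functional VHL. The knockout line was derived from it by means of a zinc finger nuclease, an engineered enzyme that cleaves a selected DNA sequence. Both lines share that VHL-deficient background, were grown in the same serum-supplemented RPMI medium, and are labelled with no treatment beyond medium. Whether the knockout line descends from a single cell is not given in the sources used here. SETD2 trimethylates lysine 36 of histone H3 over the bodies of active genes. The comparison describes how transcript levels differ between 1 library of the knockout line and 1 of the wild-type line.

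HIF is a pair of proteins, an oxygen-regulated alpha subunit and the stable partner ARNT, that binds a short DNA core in the promoters and enhancers of its targets. When oxygen is present, prolyl hydroxylases mark the alpha subunit and VHL directs its destruction, so that cells without VHL keep HIF targets switched on in normal oxygen. In clear cell renal carcinoma this programme is on from an early stage, and 786-O is known to depend on HIF-2 alpha, the product of EPAS1, and to lack HIF-1 alpha protein. The targets outside glycolysis serve pH balance, mitochondrial turnover, collagen maturation, hormone secretion, transcriptional feedback and glycogen storage.

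The HIF core was looked for in the members' promoters, from 250 bases before to 50 bases after each RefSeq transcription start (GRCh38.p14), as ACGTG or GCGTG on either strand. A palindromic CACGTG counts on both strands. Promoters were picked by hand as examples. BHLHE41, ADM and PLOD2 were lower and TMEM45A higher by the rule given below, and ANKRD37 and CA9 were at low levels. Other members of these kinds, such as FAM162A, DDIT4 and RORA, are not shown. The picked promoters are printed with every match in capitals. They lie at chr12:26124988-26125287 (BHLHE41, minus strand), chr11:10304823-10305122 (ADM, plus), chr3:146161135-146161434 (PLOD2, minus), chr3:100492369-100492668 (TMEM45A, plus), chr4:185396591-185396890 (ANKRD37, plus) and chr9:35673678-35673977 (CA9, plus).
BHLHE41: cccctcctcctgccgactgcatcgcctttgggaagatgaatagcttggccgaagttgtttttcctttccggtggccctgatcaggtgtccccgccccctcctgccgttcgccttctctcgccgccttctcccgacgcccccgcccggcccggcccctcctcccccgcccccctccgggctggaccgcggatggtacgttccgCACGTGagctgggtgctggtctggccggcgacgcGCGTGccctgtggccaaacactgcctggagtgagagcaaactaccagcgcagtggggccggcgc
ADM: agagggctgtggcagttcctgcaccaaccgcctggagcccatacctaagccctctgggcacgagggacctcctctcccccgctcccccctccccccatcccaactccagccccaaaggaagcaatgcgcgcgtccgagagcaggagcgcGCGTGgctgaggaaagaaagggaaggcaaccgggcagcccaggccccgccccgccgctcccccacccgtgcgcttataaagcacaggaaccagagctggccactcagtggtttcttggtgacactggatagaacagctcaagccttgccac
PLOD2: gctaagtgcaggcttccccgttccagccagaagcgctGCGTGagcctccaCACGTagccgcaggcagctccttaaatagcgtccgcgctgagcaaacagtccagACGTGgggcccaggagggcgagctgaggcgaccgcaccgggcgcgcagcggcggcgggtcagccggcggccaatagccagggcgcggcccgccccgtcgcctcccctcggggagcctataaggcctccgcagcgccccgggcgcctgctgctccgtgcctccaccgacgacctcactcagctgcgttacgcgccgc
TMEM45A: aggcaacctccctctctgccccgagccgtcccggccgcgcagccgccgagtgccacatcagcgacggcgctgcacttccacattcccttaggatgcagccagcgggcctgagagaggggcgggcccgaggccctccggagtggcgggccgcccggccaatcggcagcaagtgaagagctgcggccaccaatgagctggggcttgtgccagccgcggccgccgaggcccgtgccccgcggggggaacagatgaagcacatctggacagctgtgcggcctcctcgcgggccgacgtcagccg
ANKRD37: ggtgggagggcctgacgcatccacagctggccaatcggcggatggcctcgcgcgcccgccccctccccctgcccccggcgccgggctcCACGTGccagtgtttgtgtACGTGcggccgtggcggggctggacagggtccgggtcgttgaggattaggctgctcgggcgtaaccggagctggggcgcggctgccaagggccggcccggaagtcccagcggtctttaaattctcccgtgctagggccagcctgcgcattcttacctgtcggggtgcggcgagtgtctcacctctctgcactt
CA9: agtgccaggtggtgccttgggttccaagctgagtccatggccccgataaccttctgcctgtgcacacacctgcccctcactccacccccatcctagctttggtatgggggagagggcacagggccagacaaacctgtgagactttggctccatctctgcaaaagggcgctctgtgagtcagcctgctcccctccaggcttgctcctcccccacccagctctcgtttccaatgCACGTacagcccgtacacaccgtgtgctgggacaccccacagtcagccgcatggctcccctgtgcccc

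In these 6 windows, BHLHE41 held a CACGTG at bases -48 and -47 and a GCGTG at -14, and ANKRD37 held the same palindrome at -162 and -161 and a further ACGTG at -143. PLOD2 held a GCGTG at -213 and ACGTG cores at -200 and -146, and ADM a single GCGTG at -101. CA9 held its single core on the opposite strand at -18. The TMEM45A window held no match on either strand, which says only that these letters are not in this window. RefSeq promoters were matched for 27 of the 32 members, and 24 of the 27 genes (88.9%) had at least 1 core in at least 1 listed promoter. The same was true of 52.4% of the 27305 genes with a listed promoter and of 67.2% of the 11122 such genes that were compared here. The members' promoters were richer in G and C, with a median of 69% against 63.7% for the genes compared. Among promoters of 65% to 75% GC, 20 of 21 member genes (95.2%) and 71.9% of 4651 compared genes held a core. The form ACGTG occurred in 59.3% of member genes and in 31.0% of compared genes, and GCGTG in 63.0% and 55.5%. At 65% to 75% GC the shares were 61.9% and 29.3% for ACGTG, and 61.9% and 61.3% for GCGTG. As the members are known targets, an excess of this core is a property of the choice of genes. BNIP3L, FUT11, NDRG1, SPAG4 and STC1 had no promoter in the table used.

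**Figure D1:**
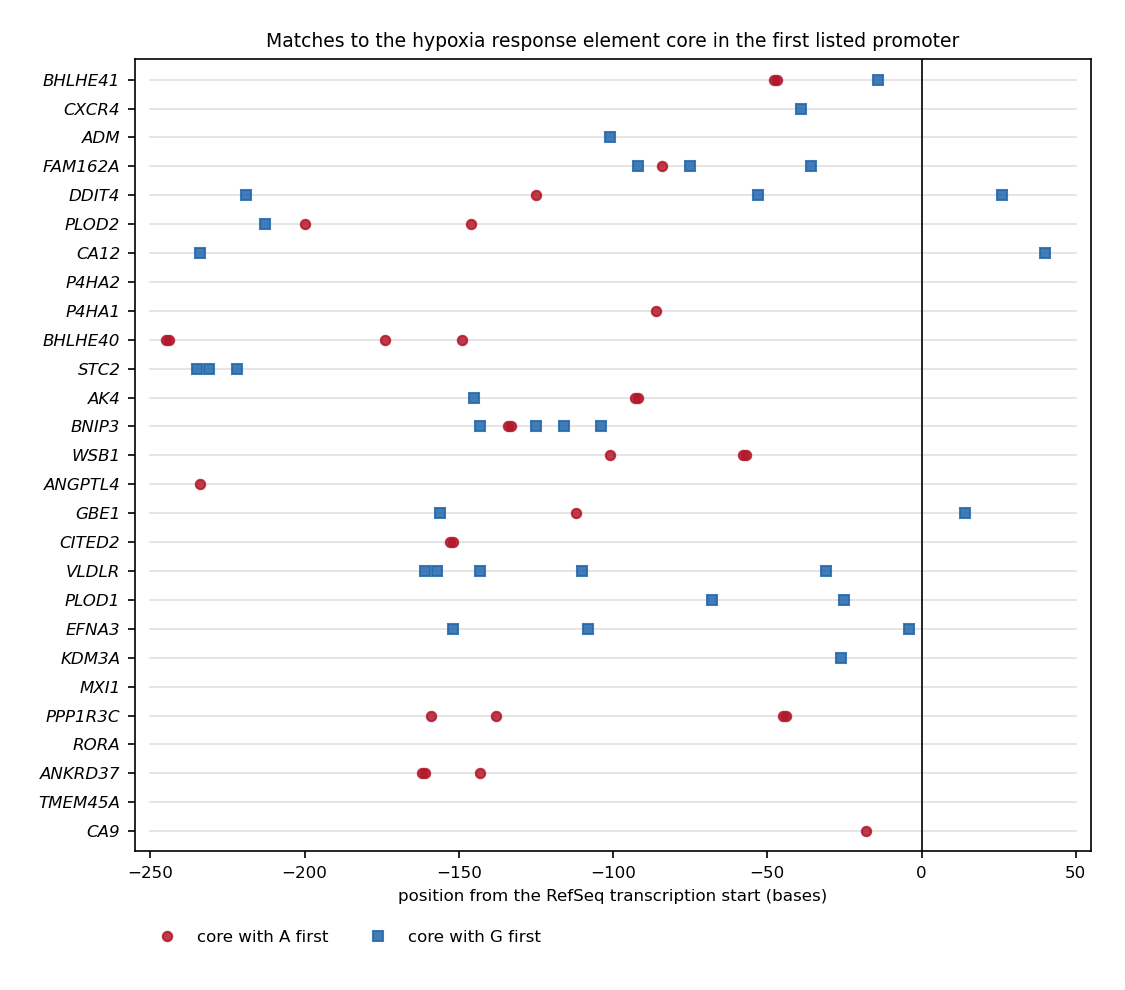
Matches to the HIF core in the first listed RefSeq promoter of 27 members, by position of the first base from the transcription start in bases (x axis). Genes run from the lowest knockout over wild-type ratio at the top to the highest, with CA9, which was not compared, at the bottom; circles are ACGTG and squares GCGTG on either strand, and the 5 lower members drawn all carry matches, while TMEM45A, the only higher member, and P4HA2, MXI1 and RORA have none in this window.

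The knockout library held 50670012 fragments in genes and the wild-type library 62304084. Every deposited count was even, which was taken to mean 2 reads per fragment, and counts were halved on that assumption. SETD2 was counted in 1404 knockout fragments, against 4908 wild-type fragments, a ratio of 0.334 after library scaling. The kidney transcription factor PAX8 was at 30.9 RPKM (the authors' unit, which scales a read count by gene length and library size) in the knockout library and 43.7 RPKM in the wild-type library, and all 8 renal carcinoma markers were detected in both. Of these 8, LHX1 was higher in the knockout library (ratio 2.64, 2.45 to 2.84) and VIM was lower (0.651, 0.647 to 0.654). Markers of other cell types were mostly near 0: PTPRC, the pan-leukocyte surface marker, had 1 knockout and 2 wild-type fragments, PECAM1 0 and 1, and CD3E none in either library. Of 8 leukocyte markers, 5 could be compared, with 2 higher and 1 lower in the knockout library and a summed level of 319.7 CPM, the count relative to the scaled library size, there and 93.6 CPM in the wild type, nearly all of it LCP1 and CD68. LCP1 was at 277 CPM in the knockout and 50.9 CPM in the wild-type library, and CD68 at 39.6 and 38.6 CPM. The 8 endothelial markers summed to 36.1 CPM in the knockout and 13.0 CPM in the wild-type library, and the 8 fibroblast and pericyte markers to 50.4 and 26.4 CPM. Of the 6 endothelial markers compared, 3 were higher in the knockout library (TEK, ERG and EGFL7) and none was lower. TEK had only 16 knockout and 4 wild-type fragments, and ERG 22 and 3, while EGFL7 had 1777 and 708. Of the 7 fibroblast and pericyte markers compared, 2 were higher (COL1A1 and ACTA2) and 2 lower (COL1A2 and LUM). ACTA2 was at 10.1 RPKM in the knockout and 3.12 RPKM in the wild-type library. The part of these markers in the results below was not tested. With 1 library per line there is no replicate error, so differences compare these libraries rather than the conditions, and the intervals given are exact 95% counting intervals. In bulk RNA, fewer cells with a transcript and less of it per cell cannot be told apart.

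Taken one by one, HIF targets differed between the libraries in both directions and mostly by modest amounts. The call used here asks that the entire interval of a gene be beyond 1.5-fold. By that rule 1 of the 31 compared members was higher in the knockout library (TMEM45A), 6 were lower (BHLHE41, STC1, ADM, FAM162A, DDIT4 and PLOD2), and 24 were neither. Across all 16894 genes compared, 10.4% were higher and 9.17% were lower by the same rule. The members are deeply covered, and among the 10794 genes whose reads in the 2 libraries sum to 1000 or more 6.36% were higher and 10.8% lower, beside 1 and 6 of the 26 members with that depth. With the libraries scaled by their total counts instead, 1 member was higher and 3 were lower (BHLHE41, STC1 and ADM), beside 11.8% and 7.55% of all genes. The median log2 ratio of knockout over wild type was 0.20 over the 31 members and 0.02 over all genes compared, and -0.09 over the 26 deep members and -0.06 over all deep genes. The interquartile range of the log2 ratio was 0.98 for the 31 members and 0.82 for all genes compared, and 0.95 for the deep members and 0.60 for all deep genes. Of the 31 intervals, 14 lay wholly above 1 and 14 wholly below, beside 34.9% and 35.2% of all genes compared. Beyond 2-fold, TMEM45A was narrowly higher and BHLHE41 and STC1 were lower, where 5.75% of all genes compared were higher and 3.37% lower.

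**Figure D2:**
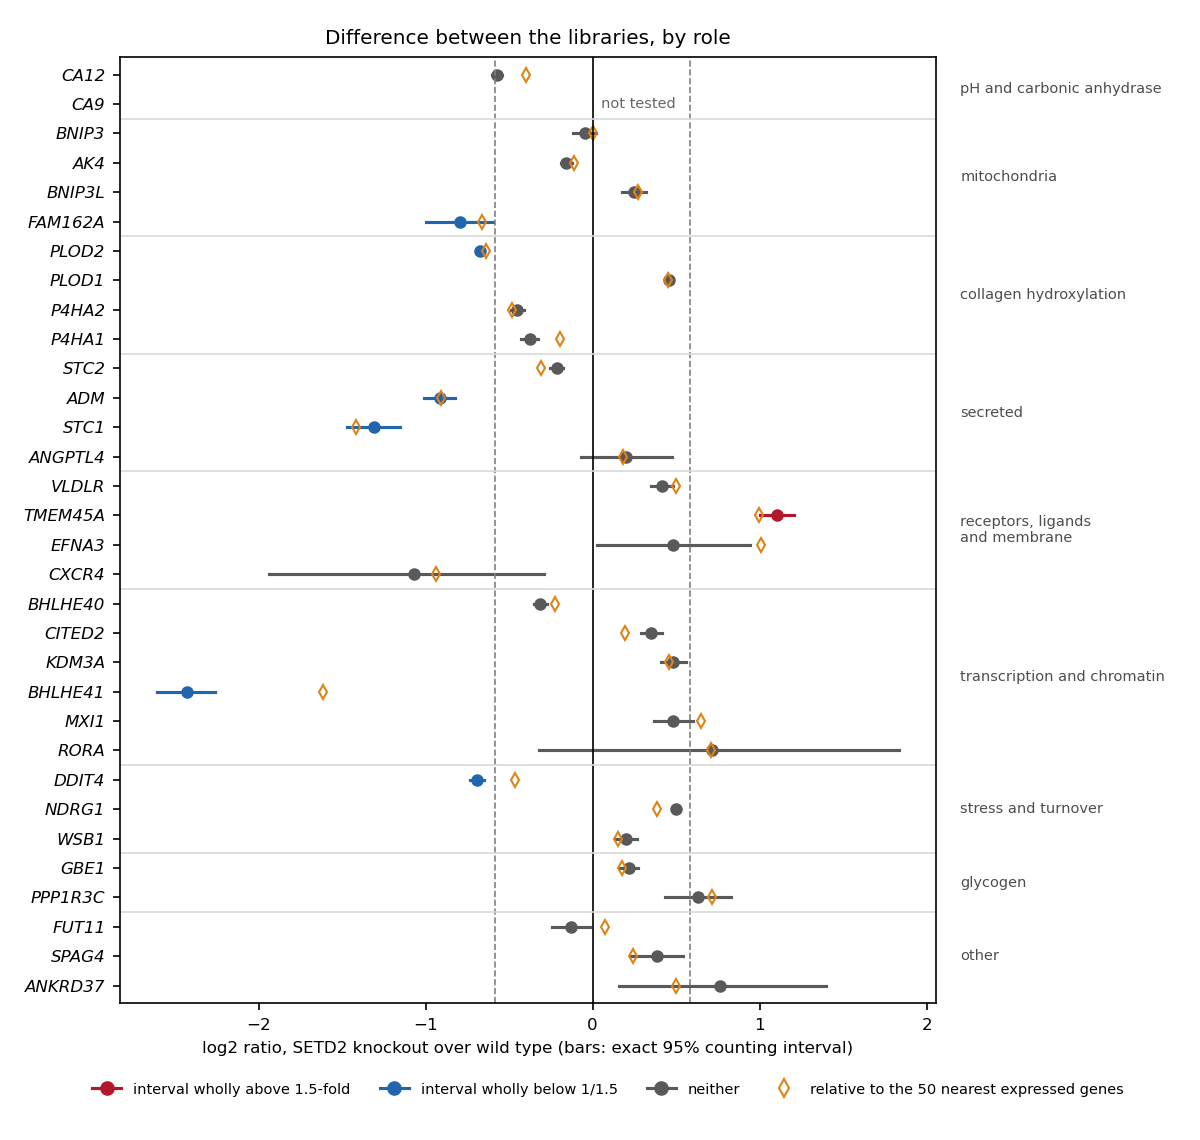
Log2 ratio of each member, knockout over wild type (x axis), grouped by role; bars are exact 95% counting intervals, dashed lines mark 1.5-fold, and diamonds give the ratio after subtracting the median of 50 neighbouring genes. TMEM45A lies wholly above the upper line, BHLHE41, STC1, ADM, FAM162A, DDIT4 and PLOD2 wholly below the lower one, and CA9 was not compared.

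The members covered a wide range of levels, and their order was much alike in both libraries. On the per-length RPKM scale the most abundant members in the knockout library were PLOD1 (131 RPKM), NDRG1 (125), PLOD2 (82.1) and DDIT4 (58.6). In the wild-type library they were PLOD2 (124 RPKM), PLOD1 (90.4), DDIT4 (89.5) and NDRG1 (83.9). The same 4 genes therefore led in both, with PLOD2 at rank 3 in the knockout library and at rank 1 in the wild type. At the other end, CA9, RORA, CXCR4, EFNA3 and ANKRD37 were under 1 RPKM in both libraries. Of the 31 compared members, 23 in the knockout and 24 in the wild-type library were above the median RPKM of all genes compared, and 7 in each were above percentile 90.

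**Figure D3:**
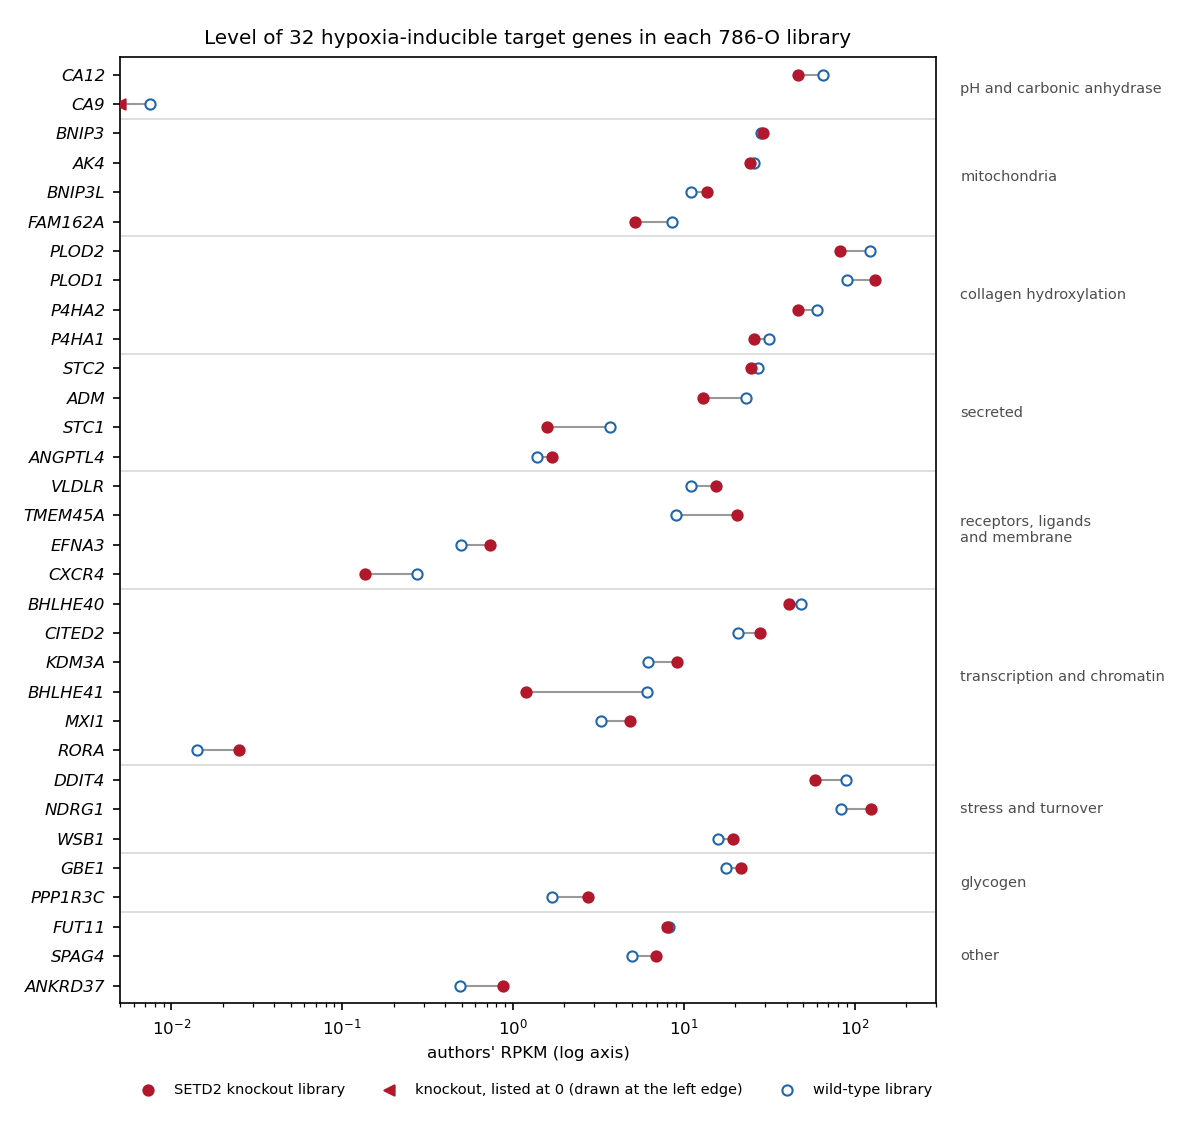
The authors' RPKM (log axis) of the 32 members in the SETD2 knockout library (filled) and the wild-type library (open), grouped by role. Levels range from 131 RPKM for PLOD1 in the knockout library to CA9, which was listed at 0 there and at 0.00751 RPKM in the wild-type library.

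The carbonic anhydrases, which turn carbon dioxide into bicarbonate and acid at the cell surface, were far apart in level. CA9 (hg19 chromosome 9, 35673915 to 35681154), the best-known surface marker of hypoxia and of clear cell renal carcinoma, was counted in 0 knockout fragments and 1 wild-type fragment. This was under the minimum of 10 reads over both libraries, so CA9 was not compared. CA9 is described as a HIF-1 target in renal carcinoma cells, and whether that bears on its count here was not tested. CA12 (chromosome 15, 63615730 to 63674075), its relative, was at 46.6 RPKM in the knockout and 65.6 RPKM in the wild-type library. Its ratio was 0.673 (interval 0.658 to 0.687), just short of the 1.5-fold rule.

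Genes of mitochondrial turnover and energy were within 1.5-fold apart from FAM162A. BNIP3, a mitophagy receptor of the outer mitochondrial membrane, was at 29.1 RPKM in the knockout and 28.5 RPKM in the wild-type library, with a ratio of 0.968 (0.922 to 1.01). BNIP3L, the related receptor that clears mitochondria from maturing red cells, was at 13.8 and 11.0 RPKM (ratio 1.19). AK4, an adenylate kinase of the mitochondrial matrix, was at 24.5 and 25.9 RPKM (ratio 0.897). FAM162A, a mitochondrial protein linked to hypoxic cell death, was counted in 302 knockout and 611 wild-type fragments, a ratio of 0.576 (0.501 to 0.663). The other 3 were not called in either direction.

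The collagen hydroxylases, all among the more abundant members, differed in direction. PLOD2 (chromosome 3, 145787228 to 145879282), which hydroxylates lysines in collagen telopeptides and so sets the type of cross-link, was counted in 23186 knockout and 43096 wild-type fragments. Its ratio was 0.628 (0.618 to 0.638). PLOD1 (chromosome 1, 11994724 to 12035599), which hydroxylates lysines of the collagen helix, was counted in 27674 knockout and 23487 wild-type fragments, a ratio of 1.37 (1.35 to 1.40). The prolyl hydroxylase subunits P4HA1 and P4HA2, which stabilise the triple helix, had ratios of 0.770 (0.744 to 0.797) and 0.732 (0.713 to 0.752). P4HA1 was at 25.8 RPKM in the knockout and 31.7 RPKM in the wild-type library, and P4HA2 at 46.7 and 60.4 RPKM.

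Of the 4 secreted products, STC1 and ADM were lower in the knockout library and none was higher, where 9.17% of all genes compared and 10.8% of the deep genes were lower. STC1 (chromosome 8, 23699434 to 23712320), a glycoprotein hormone of calcium and phosphate balance, was counted in 426 knockout and 1232 wild-type fragments, with a ratio of 0.403 (0.360 to 0.451). ADM (chromosome 11, 10326642 to 10328923), the vasodilator peptide adrenomedullin, was counted in 1314 knockout and 2892 wild-type fragments, with a ratio of 0.530 (0.496 to 0.566). STC2, the second stanniocalcin, was far more abundant than STC1 per length, at 24.9 RPKM in the knockout and 27.3 RPKM in the wild-type library (ratio 0.863). ANGPTL4, an inhibitor of lipoprotein lipase, was low, at 1.69 and 1.39 RPKM, and its interval of 0.953 to 1.39 included equality.

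Among receptors, ligands and membrane proteins, TMEM45A was the member with the highest ratio. TMEM45A (chromosome 3, 100211463 to 100296285), a multipass membrane protein, was counted in 2236 knockout and 1214 wild-type fragments, at 20.5 and 9.05 RPKM. Its ratio was 2.15, with an interval that began just above 2 and reached 2.31. The lower end was under 2 with DESeq2 size factors (1.99), at 99% (1.96) and relative to neighbouring genes (1.86), so the interval was not wholly beyond 2-fold in those settings. VLDLR, a lipoprotein and reelin receptor, was at 15.5 RPKM in the knockout and 11.0 RPKM in the wild-type library (ratio 1.34, 1.28 to 1.40). EFNA3, an ephrin ligand, was counted in 91 knockout and 76 wild-type fragments, and its interval of 1.02 to 1.92 was wide. CXCR4, the chemokine receptor that VHL loss is known to raise, was nearly silent, with 19 knockout and 47 wild-type fragments (ratio 0.472, 0.261 to 0.819). At that depth a 1.5-fold difference was not resolved.

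Transcriptional and chromatin regulators held the lowest ratio of all members. BHLHE41 (chromosome 12, 26272959 to 26278003), a repressor of the circadian clock, was counted in 313 knockout and 1968 wild-type fragments, at 1.19 and 6.07 RPKM. Its ratio was 0.186 (0.164 to 0.209), and it was at percentile 35.1 of all compared genes by RPKM in the knockout library and at percentile 60.6 in the wild type. BHLHE40, the related repressor, was at 41.3 and 48.6 RPKM, a ratio of 0.805 (0.783 to 0.827). Several others had intervals wholly above 1 but within 1.5-fold or crossing it. CITED2, which competes with HIF for the coactivators EP300 and CREBBP, had a ratio of 1.28 (1.22 to 1.33), and KDM3A, a demethylase of H3K9, a ratio of 1.40 (1.33 to 1.47). MXI1, an antagonist of MYC, had 1290 knockout and 1076 wild-type fragments (1.40, 1.29 to 1.52). RORA, a nuclear receptor of the clock, had 20 and 14 fragments and an interval of 0.800 to 3.57.

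Stress and turnover genes included both an abundant lower and an abundant member with a ratio above 1. DDIT4 (chromosome 10, 74033677 to 74035797), which restrains mTORC1 under stress, was at 58.6 RPKM in the knockout and 89.5 RPKM in the wild-type library. Its ratio was 0.620 (0.602 to 0.638). NDRG1 (chromosome 8, 134249414 to 134309547), a differentiation-related protein long used as a hypoxia marker, was at 125 and 83.9 RPKM, with a ratio of 1.42 (1.39 to 1.44). WSB1, a substrate adaptor of a ubiquitin ligase, had a ratio of 1.15 (1.10 to 1.20).

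The remaining members were called in neither direction. GBE1, the glycogen branching enzyme, was at 21.6 RPKM in the knockout and 17.6 RPKM in the wild-type library (ratio 1.16). PPP1R3C, which targets a phosphatase to glycogen, had 494 and 372 fragments and a ratio of 1.55 (1.35 to 1.78), beyond 1.5-fold in its value but not in its interval. FUT11, a fucosyltransferase, had a ratio of 0.914 (0.845 to 0.988), and SPAG4, a protein of the nuclear envelope, a ratio of 1.31 (1.17 to 1.46). ANKRD37, an ankyrin repeat protein, had 57 knockout and 39 wild-type fragments (ratio 1.70, 1.11 to 2.63). Its row shares 697 bases of genomic span with UFSP2, which had 418 and 214 fragments, and since the use of strand is not given, reads of the pair may not be separated. VLDLR overlaps a second row by 581 bases, with 12 and 16 fragments, and no other member overlapped another row.

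The members include 5 pairs of paralogs that were both counted, and the balance within a pair does not depend on how libraries are scaled. PLOD2 was less abundant than PLOD1 in the knockout library, with a PLOD2 to PLOD1 ratio of 0.626 on the RPKM scale, and more abundant in the wild type, with a ratio of 1.37. The balance differed between the libraries by a factor of 0.457 (exact interval 0.446 to 0.468). For BHLHE41 over BHLHE40 the factor was 0.231 (0.203 to 0.261), and for STC1 over STC2 it was 0.468 (0.416 to 0.524). BNIP3 over BNIP3L had a factor of 0.814 (0.761 to 0.872). P4HA2 over P4HA1 stayed at 1.81 in the knockout and 1.90 in the wild-type library, a factor of 0.951 (0.910 to 0.993). The lysyl hydroxylases thus differed in order between the libraries, and the prolyl hydroxylase subunits did not. These intervals cover counting error only.

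**Figure D4:**
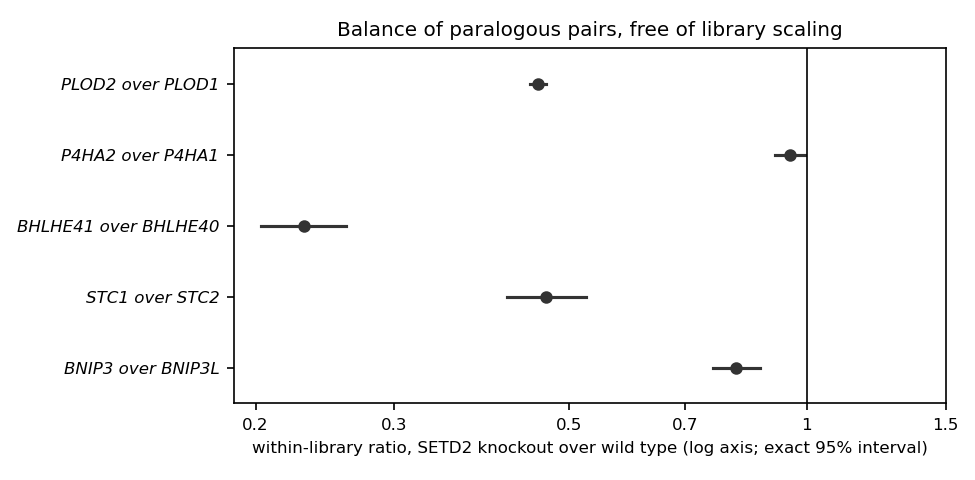
Within-library ratio of 5 paralogous pairs, knockout over wild type (log axis), with exact 95% intervals; 1 means the same balance in both libraries. BHLHE41 over BHLHE40 is lowest at 0.231, and P4HA2 over P4HA1 is nearest to 1 at 0.951.

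The other genes of the HIF pathway were compared in the same way. By the same rule, 10.4% of all genes compared were higher and 9.17% lower, and among deep genes 6.36% and 10.8%. Of 16 genes of the HIF machinery, 2 were lower and none was higher (median log2 ratio -0.06). EPAS1, the HIF-2 alpha subunit, was at 12.3 RPKM in the knockout and 21.1 RPKM in the wild-type library (ratio 0.553, 0.533 to 0.573), and ARNT2, an alternative partner, was at 2.29 and 5.34 RPKM (ratio 0.406, 0.378 to 0.436). HIF1A had a ratio of 0.612 (0.556 to 0.674), narrowly outside the rule, ARNT 0.682 (0.642 to 0.724) and VHL 1.08 (1.04 to 1.13). HIF3A, singled out after its values were seen, had 5 knockout and 0 wild-type fragments and was called in neither direction. Of 20 glycolytic targets, 7 were lower and none was higher, with a median of -0.30, among them ENO2 (ratio 0.306, 0.285 to 0.329) and ALDOC (0.285, 0.208 to 0.384). Of 14 compared targets in another list, which holds VEGF and LOX genes among others, 3 were lower and 1 higher, with a median of -0.27. LOX, a collagen cross-linking enzyme, had a ratio of 0.119 (0.0928 to 0.151), IGFBP3, a growth factor binding protein, 0.414 (0.408 to 0.420), and HMOX1, a haem-degrading enzyme, 2.23 (2.12 to 2.35). Relative to its 50 nearest genes, whose median log2 ratio was -0.80, ENO2 was at -0.91, against -1.71 on the whole-library scale. On that relative scale the glycolytic median was -0.14, and 9 of the 50 compared pathway genes were lower, against 12. PFKP, TPI1, GAPDH and PKM, all called lower on the whole-library scale, were at -0.16, -0.19, -0.09 and -0.50 relative to neighbours. Those values are within 1.5-fold, so these genes were no longer called. ENO2, ALDOC and PDK1 were the glycolytic targets still lower, and HIF1A was added. The share of all genes that were lower was 5.81% on the relative scale, against 9.17%. Beside the whole-library medians stand 0.20 for the 31 members and 0.02 for all genes compared, and no test of a difference between lists was made.

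**Figure D5:**
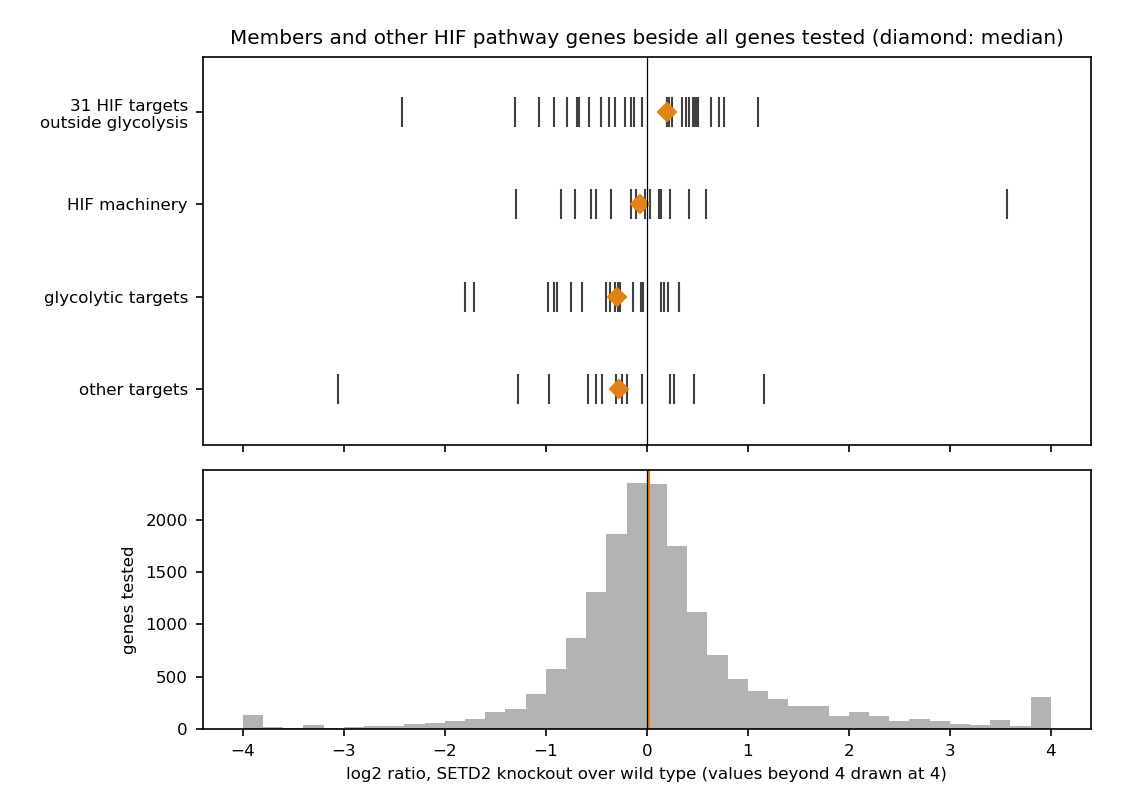
Log2 ratio, knockout over wild type (x axis), of each compared gene in 4 lists (ticks, upper panel; diamonds are medians) above the number of genes per 0.2-wide bin over all 16894 genes compared (lower panel; the orange line is their median). The members spread from -2.43 to 1.10 around a median of 0.20, and the glycolytic targets have a median of -0.30; the HIF3A tick at 3.56 is a fitted value against 0 wild-type fragments.

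The 32 members lie on 15 chromosomes, with 6 on chromosome 10 and 5 on chromosome 3. Those on chromosome 3 included both the highest ratio (TMEM45A) and lower genes (FAM162A and PLOD2), and those on chromosome 10 ranged from -0.69 for DDIT4 to 0.63 for PPP1R3C on the log2 scale. BHLHE41 lies among genes that were themselves lower, as the 50 expressed genes closest to it had a median log2 ratio of -0.82, and its value relative to them was -1.61, against -2.43 on the whole-library scale. EFNA3 lies where the neighbours' median was -0.53, and relative to them its log2 ratio was 1.01. STC1 and ADM were at -1.41 and -0.91 relative to their neighbours, against -1.31 and -0.92 on the whole-library scale. Relative to neighbours, FAM162A and DDIT4 were no longer called lower, at -0.66 and -0.47, which left 4 members lower and TMEM45A higher. The FAM162A value stayed beyond 1.5-fold, but its interval (ratio 0.549 to 0.727) did not lie wholly beyond it. On that scale 10.3% of 16873 genes were higher and 5.81% lower.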

How the data were processed

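RNA was measured in 1 SETD2 knockout and 1 wild-type 786-O library. For each gene the authors deposited a count of raw reads and an RPKM, per the file headers. hg19, TopHat2 2.0.6, Bowtie and HTSeq are named in the submitters' processing notes; no source used here gives the settings, annotation release or strand use. As every deposited count was even, 2 reads per fragment were assumed and counts were halved. The Y row of 23 genes also listed on X was left out. RPKM was used as deposited.

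TMM factors from edgeR 4.0.16 (R 4.3.3) scaled the libraries, on 16894 genes with at least 10 reads. Ratios have exact conditional (Clopper-Pearson) 95% intervals from scipy 1.17.1, which cover counting error only; log2 ratios used 0.5 added fragments. A single library per line leaves no replicate error, so there are no p-values. The interval was tested on simulated counts that held counting error only, which says nothing about error between replicate libraries or in the scaling. Members and lists were chosen with earlier results of these data known. Named genes were all members, SETD2, EPAS1, HIF1A, ARNT, VHL and up to 2 called genes per direction of each pathway list. HIF3A, PFKP, TPI1, GAPDH, PKM and PDK1 were singled out after their values were seen. PAX8 and other markers illustrate their lists. ELOB, ELOC, PKM and ERO1A were found under older symbols. DESeq2 1.42.0 size factors were among 13 alternatives. Proteins were not analysed here.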

Additional observations from a re-analysis of the deposited data

How the results depend on the processing

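Among SETD2, the compared members and the pathway genes named by rule, none changed direction while called under any of the 13 alternatives. HIF3A, PFKP, TPI1, GAPDH, PKM, PDK1 and the markers were not followed one by one. Of 403 member values, 382 kept their side of the 1.5-fold rule, but part of that was fixed in advance. Using 2 added fragments cannot alter a call, a 99% interval or a 2-fold rule can only remove calls, and dropping the interval can only add them. Of the 6 lower members, BHLHE41 and STC1 were lower throughout. Total count scaling, upper quartile scaling and the authors' RPKM totals each left 3 lower members, without DDIT4, FAM162A and PLOD2, and put the pathway genes called higher at 2, against 1. Of all genes compared, 7.55%, 7.59% and 7.5% were lower in these 3 settings, and 11.8%, 11.8% and 11.9% higher. An interval wholly beyond 2-fold left 2 lower members and 5 lower pathway genes, against 12, where 3.37% of all genes compared were lower. The ratio without an interval gave 4 higher members, with ANKRD37, PPP1R3C and RORA added, and 7 lower ones, with CXCR4 added. In that setting 20.9% of all genes compared were higher and 16.8% lower. Pathway genes called higher were 2 without an interval and 2 in undivided reads, where 20.9% and 13.6% of all genes compared were higher. HIF1A was called lower in undivided reads, without an interval and relative to neighbours. With at least 1 read, CA9 entered, with a ratio that rests on 1 fragment, and the members' median log2 ratio was 0.074, against 0.20. Scalings moved the median of all genes to at most 0.10. No paired analysis was possible because each line has 1 library, and no library could be left out. Depth limits CA9, CXCR4, RORA, ANKRD37 and EFNA3.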
